A study of Bos taurus with 12 samples.

Results

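Potassium channel subunits are the proteins that form, gate or modify the pores through which potassium ions leave or enter a cell. They were taken here as every gene whose name on the array starts with KCN, whatever its signal, and each gene was read by its brightest probe. This gave 84 genes, carried by 128 probes, of 14508 named genes. All 84 are found in a RefSeq gene table of the cow, which lists 95 such symbols. The tissue was endometrium of 3 fertile cows (Bos taurus), all given povidone-iodine (PVP-I), an antiseptic that releases iodine, into the uterus. Biopsies were taken from the same animals on days 0, 2, 7 and 14, in turn from the left and the right horn, and total RNA of each was labelled with Cy3 and hybridised to a single-colour Agilent bovine array, 12 arrays in all (n = 3 cows a day). The labels of all groups name the treatment, and no untreated cow was among the samples. The labels give neither the stage of the oestrous cycle, nor the horn, nor whether the day 0 biopsy came before the antiseptic. Antiseptic, time, cycle and repeated biopsy therefore cannot be told apart in any difference between days.

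Potassium channels set the resting potential of cells and bring it back after excitation. Voltage-gated channels open when a cell depolarises, calcium-activated channels open when calcium rises inside it, inward rectifiers and tandem-pore channels hold the resting potential, and accessory subunits change the gating, trafficking or drug response of the pores they bind. In the uterus they are known for restraining contraction of the smooth muscle of the myometrium and of vessels, and in lining epithelia they supply the electrical drive and the potassium recycling for secretion of ions and fluid. Some members carry no current alone: the modifier subunits of the KCNF, KCNG, KCNS and KCNV groups act by joining other voltage-gated subunits.

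Signals are given on the log2 scale after each array's own 75th percentile over non-control probes was subtracted, so that 0 is the level of that percentile. Levels of different genes come from different probes and are not compared with each other. The share of probes well above background lay from 71.3 to 76.0% for 11 arrays and was 63.2% for the day 2 array of cow 3. The arrays were named by the columns of the deposited value table, and the links of the scanner files give another sample for 10 of 12 arrays. Under the table's names, each cow filled 1 slide and each day 1 position on the slides, so cow and slide, and day and position, cannot be told apart. A biopsy is bulk tissue, in which fewer cells of a type and less RNA per cell cannot be told apart.

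Of the 84 genes, 27 were well above background on all 12 arrays, 27 on 3 to 11, 15 on 1 or 2 and 15 on none. A gene was tested where its probe was well above background on at least 3 arrays, which held for 54. The accessory subunits were the class most often measured, with 11 of 17 genes well above background on all arrays, and the pore-forming voltage-gated subunits were seldom so, with 3 of 25. The corresponding numbers were 4 of 7 for the family of calcium- or sodium-activated channels, in which KCNU1 was placed by its name. They were 4 of 14 for inward rectifiers, 4 of 13 for tandem-pore channels and 1 of 8 for modifiers. The genes not well above background on any array included KCNA1, KCNA5, KCNA7, KCNA10 and KCNC4 (voltage-gated), KCNJ1, KCNJ6 and KCNJ14 (inward rectifiers), KCNK10 and KCNK18 (tandem-pore), KCNS2 (modifier), KCNU1 (activated), KCNE2 and KCNIP1 (accessory). Between 42 and 53 of the 84 genes were well above background on 11 arrays, and 34 on the day 2 array of cow 3.

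**Figure D1:**
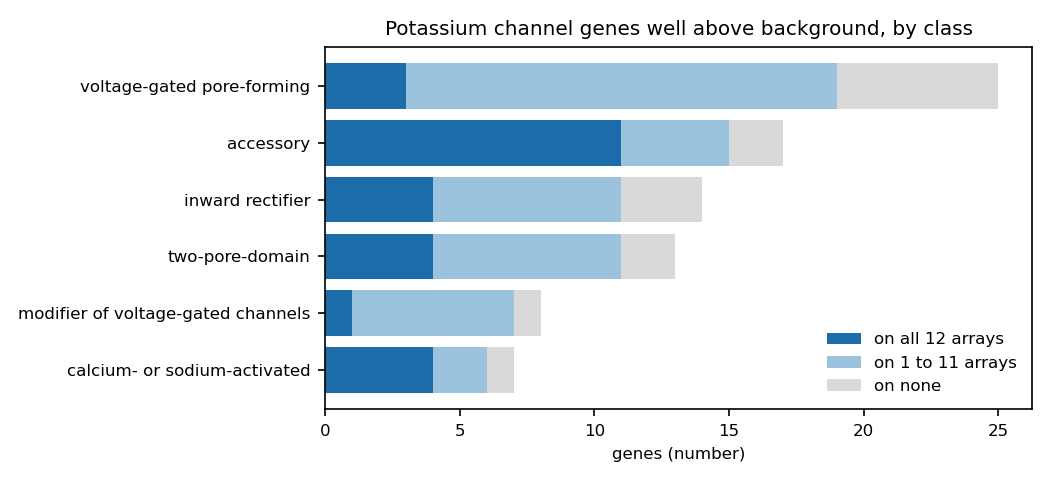
Number of potassium channel genes (horizontal axis) in each of 6 classes, divided by whether the brightest probe was well above background on all 12 arrays, on 1 to 11 or on none. Accessory subunits hold 11 of the 27 genes measured on all arrays, and voltage-gated pore-forming subunits hold 3.

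Between day 0 and day 2, 4 potassium channel genes passed the test with all arrays in the fit, each lower on day 2. KCNH6 and KCNV1 were not well above background on any day 2 array, while KCNJ8 and KCNAB3 were so on each. The 4 genes were 7.41% of the 54 tested, while 2.92% of all 12219 genes tested passed, 1.94% higher and 0.982% lower. This share counts KCNV1, which entered the tests through its day 0 arrays alone. The test was limma, with the day as a factor, the cow as a block and Benjamini-Hochberg adjustment over all probes at 0.05. The median log2 change over the 54 genes was 0.05, beside 0.02 over all genes. The direction of the calls depended on the fit: with array weights 5 genes passed higher and 6 lower, among the former KCNE4, KCNN4 and KCNT1, and with only both days in the fit 2 passed higher and 3 lower, of which 2 were among the 4. The count was 0 without cow 1, 0 without cow 2 and 3 without cow 3 (9, 11 and 17 genes with an unadjusted p under 0.05 in limma), while the change of KCNH6 was -5.12 without cow 1 and -5.31 without cow 2. It was 0 under the samples of the file links (1 unadjusted).

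The comparison of day 7 with day 0 had the most genes past the threshold, 7 higher and 9 lower. KCNJ15, KCNJ16, KCNN4, KCNB2, KCNE3, KCNT1 and KCNC1 rose, and KCNH6, KCNV1, KCNN2, KCNF1, KCNMA1, KCNAB3, KCNJ11, KCNK1 and KCNJ8 fell, each in 3 of 3 cows. These 16 genes were 29.6% of the 54 tested, beside 19.2% of all genes (11% of all genes higher and 8.15% lower). The share counts KCNV1 and KCNJ16, which entered the tests through arrays of day 0 alone and of day 7 alone. The median size of change without regard to sign was 0.71 on the log2 scale, beside 0.41 over all genes. This was not particular to day 7. The median size was 0.54 on day 2 and 0.61 on day 14, each beside 0.3 over all genes. All 4 genes that passed on day 2 were among the 16, but both comparisons use the same day 0 arrays. The count was 10 with day alone in the model, without the cow as replicate block, and 0 under the samples of the file links (3 genes with an unadjusted p under 0.05). It was 0 without cow 1 (17 unadjusted), 4 without cow 2 (KCNH6, KCNJ16, KCNN2 and KCNN4) and 15 without cow 3, of which 13 were among the 16. With only both days in the fit, KCNAB3 (adjusted p = 0.0584), KCNC1 (0.0687), KCNE3 (0.0596), KCNJ11 (0.0624), KCNK1 (0.0585) and KCNT1 (0.0638) missed the threshold. With normexp background correction and quantile scaling, KCNH6 (-2.83), KCNV1 (-1.09), KCNN2 (-2.16), KCNJ11 (-0.74), KCNJ15 (3.08), KCNJ16 (1.23) and KCNC1 (0.59) passed with smaller changes, and KCNF1, KCNN4, KCNT1 and KCNE3 did not pass.

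**Figure D2:**
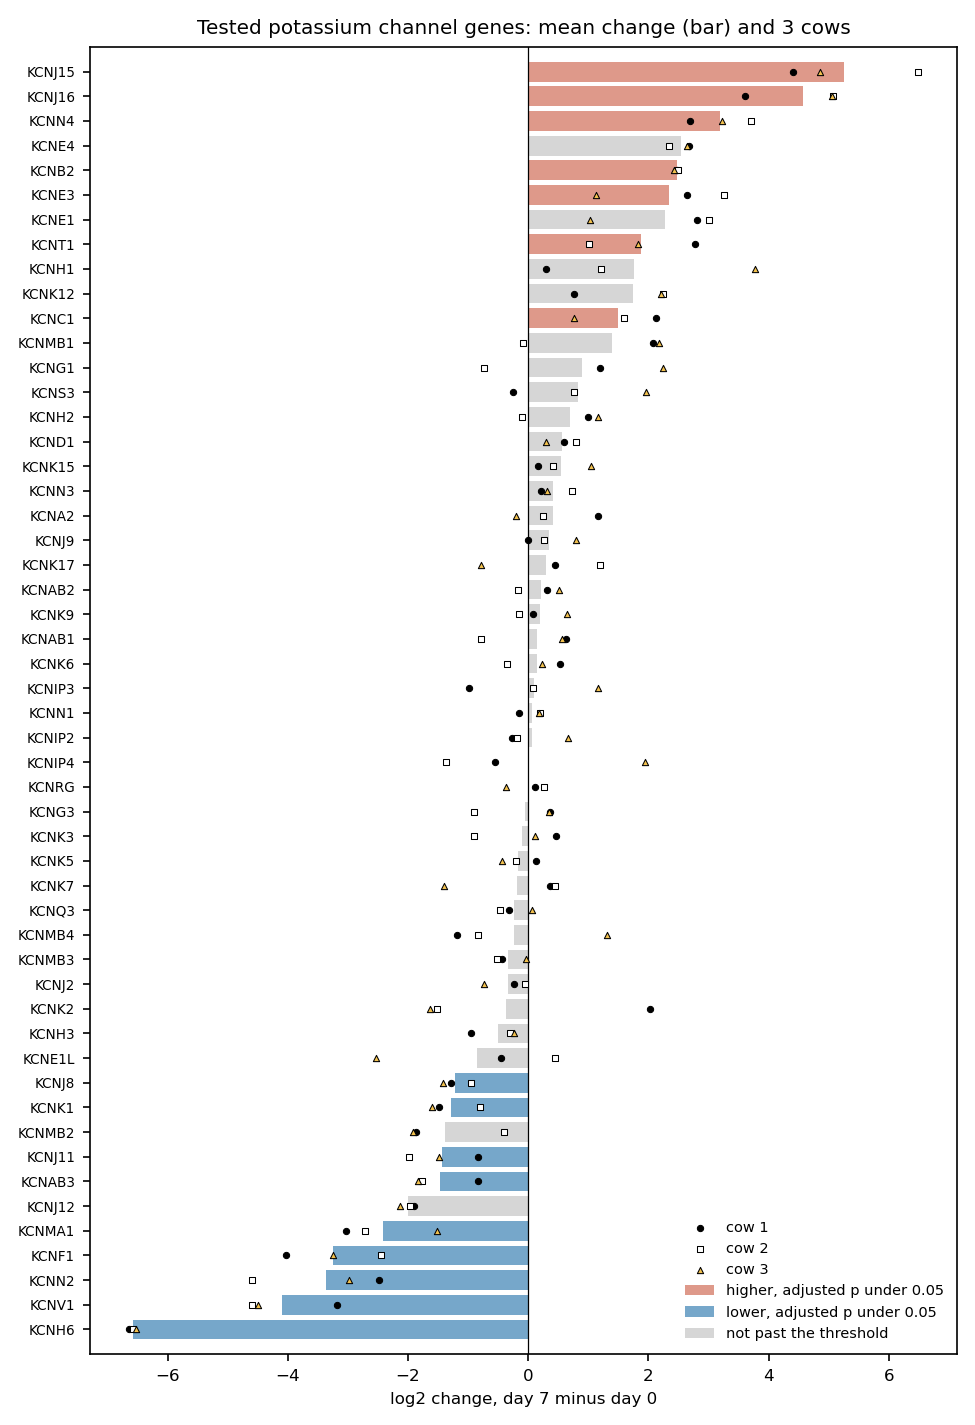
Log2 change from day 0 to day 7 of potassium channel genes that were tested. Bars are means over 3 cows, points are single cows, and colour marks adjusted p under 0.05. The 3 points of KCNH6 run from -6.64 to -6.53, but no day 7 array of this gene was well above background. Their closeness is thus no measure of agreement between cows. The points of KCNMB4 lie on both sides of 0, from -1.19 to 1.31.

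Among the pore-forming voltage-gated subunits, KCNH6 fell on days 2 and 7. It belongs to the ether-a-go-go-related group, whose better known member KCNH2 repolarises the heart. Its log2 signal was -1.13, -1.92 and -0.52 in cows 1, 2 and 3 on day 0 and -6.14, -6.54 and -6.14 on day 2. It was -7.77, -8.49 and -7.05 on day 7 and -3.01, -6.24 and -3.98 on day 14. No array of day 2 or 7 was well above background, so the fall is given as a bound: at least 28-fold on day 2 (log2 change -5.08 ± 0.50 SE, adjusted p = 0.0116, limma) and at least 35.4-fold on day 7 (-6.58 ± 0.50, adjusted p = 0.00169). Every array of day 0 was above every array of the later days. The probe 300 bases further upstream in the transcript gave the same course, with a log2 change of -6.55 ± 0.66 on day 7 (adjusted p = 0.00208). The 2 probes are shown because both stretches of the transcript gave this fall. In the upstream probe (chr19:49406553-49406612, plus strand), 1 reading frame runs without a stop up to the stop codon in capitals at its end. The other frames hold no stop codon, and whether the marked codon ends the gene's coding sequence was not annotated. Of the brightest probe the first 30 bases are shown (chr19:49406853-49406912, plus strand). Coordinates here and below are those of the array's files, whose headers name the build HGSC Btau_3.1.
KCNH6, upstream probe: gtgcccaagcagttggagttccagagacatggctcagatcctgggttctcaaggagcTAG
KCNH6, brightest probe: ggcgtggaggtagctgccaggacagagggc

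KCNB2 and KCNC1, pores of delayed-rectifier and fast-repolarising channels of excitable cells, rose on day 7. KCNB2 had log2 signals of -2.47, -1.62 and -3.60 on day 0 and -1.27, -1.07 and -3.38 on day 2, then 0.01, 0.88 and -1.17 on day 7 and -0.83, -0.54 and -4.60 on day 14. Cow 3 had the lowest signal on every day, yet the rise to day 7 was nearly equal in the cows (2.48, 2.49 and 2.43; mean 2.47 ± 0.47 SE, adjusted p = 0.0132). Its other probe gave 2.51 (adjusted p = 0.0178). KCNC1 had -5.19, -6.22 and -5.71 on day 0 and -3.06, -4.62 and -4.94 on day 7, a log2 change of 1.5 ± 0.33 (adjusted p = 0.021). The groups did not overlap, and a probe that covers nearly the same bases gave 1.13 (adjusted p = 0.049). The remaining KCNC1 probe was not well above background on either day and was not tested. Without the cow as replicate block, KCNB2 (adjusted p = 0.155) and KCNC1 (0.101) no longer passed.

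The other voltage-gated pores did not pass in any comparison with day 0. KCNH1 had day 7 changes of 0.29, 1.21 and 3.78 in cows 1, 2 and 3 (mean 1.76 ± 1.04, adjusted p = 0.265), so that cow 3 made most of the mean. KCND1, a pore of transient outward current, had 0.57 ± 0.23 (adjusted p = 0.119), and its relatives KCND2 and KCND3 were well above background on 1 array each and were not tested. KCNQ1, the pore that KCNE subunits join, was well above background on 1 array of day 2 and 1 of day 14 and was not tested either. KCNH2 had day 2 changes of -0.88, -0.99 and 1.88 and a mean day 7 change of 0.69 ± 0.59 (adjusted p = 0.438). KCNQ3, a subunit of the neuronal M current, had changes of -0.06, -0.24 and -0.14 on days 2, 7 and 14 and a 0.20 SE. KCNA2 (0.41) and KCNH3 (-0.50 on day 7) did not pass either.

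Of 5 modifier subunits tested, 2 passed on day 7, both lower (40%, beside 8.15% of all genes lower). KCNV1 is counted in this share although its day 0 arrays alone brought it into the tests, so the share is no separate support. KCNV1, which silences or retunes channels of the KCNB group, had log2 signals of -4.78, -3.57 and -3.74 on day 0 and -8.16, -8.54 and -7.22 on day 2, then -7.95, -8.16 and -8.23 on day 7 and -6.53, -7.61 and -8.19 on day 14. It was well above background on the arrays of day 0 alone, and so entered the tests through the day on which it was high. Its fall was at least 4.12-fold on day 2 (log2 change -3.95 ± 0.52, adjusted p = 0.0156) and at least 4.96-fold on day 7 (-4.09 ± 0.52, adjusted p = 0.00389). Its single probe (chr14:52291481-52291540, plus strand) is shown by its first 30 bases because the gene's result rests on it.
KCNV1: gactgaaaggcagagaaagagcaagtacta

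KCNF1, another modifier of KCNB channels, kept its signal to day 2 and was low on day 7. It had -3.44, -4.01 and -3.51 on day 0 and -3.35, -3.25 and -4.75 on day 2, then -7.46, -6.46 and -6.75 on day 7 and -4.11, -5.62 and -2.52 on day 14. Its fall from day 0 to day 7 was at least 6.43-fold (log2 change -3.24 ± 0.73, adjusted p = 0.022). Its other probe, 887 bases away, had a smaller change of -1.33 ± 0.57 that did not pass (adjusted p = 0.135), and with another background correction and quantile scaling the brightest probe's change was -0.93 (adjusted p = 0.103). The modifiers KCNG1, KCNG3 and KCNS3 had day 7 changes of 0.90, -0.06 and 0.83 and did not pass. KCNG4, KCNS1 and KCNS2 were not tested.

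Among the calcium- and sodium-activated channels, 2 genes rose and 2 fell on day 7 of 6 tested (66.7%, beside 19.2% of all genes). KCNMA1 encodes the pore of the large-conductance calcium-activated (BK) channel, a brake on smooth muscle contraction. Its log2 signal was 4.45, 4.53 and 5.06 on day 0 and 2.90, 2.62 and 4.67 on day 2, then 1.42, 1.82 and 3.54 on day 7 and 3.72, 1.83 and 4.48 on day 14. Every array of day 7 was below every array of day 0, and cow 3 had the highest signal on each day. The change to day 7 was -2.42 ± 0.45 (adjusted p = 0.0124), a fall of 5.35-fold. The gene's other 2 probes moved the same way on average without passing, by -1.67 ± 0.54 (adjusted p = 0.0661) and by -2.26 ± 1.06 (adjusted p = 0.166). In the latter, cow 3 went up by 1.34 while cows 1 and 2 had changes of -4.54 and -3.58. KCNMA1 did not pass without the cow as replicate block (adjusted p = 0.0656) or as the mean of its probes (-2.12, adjusted p = 0.0552).

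That last probe (chr28:32325688-32325747, minus strand) is shown because it spans codons of the selectivity filter, the short loop that lets potassium pass and holds sodium back. The capitals mark a match to the codons of the potassium channel signature, with the bases free that can differ between channels or codons. On the probe strand as the files give it, this was the single match among the 128 probes (0.781%), while 22 of all 43653 probes of the array held the pattern (0.0504%). With both strands searched the numbers were 1 and 38. A match is a description of letters and says nothing of the protein.
KCNMA1, filter probe: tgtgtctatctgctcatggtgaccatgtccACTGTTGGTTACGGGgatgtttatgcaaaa

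The accessory beta subunits of the BK channel did not pass in any comparison with day 0. KCNMB1, the beta subunit of smooth muscle, had -1.73, -1.80 and -1.29 on day 0 and -1.66, -1.74 and 3.42 on day 2, then 0.35, -1.89 and 0.89 on day 7 and -1.44, -2.40 and 2.64 on day 14. Its mean change was 1.62 ± 0.97 on day 2 (adjusted p = 0.379), which came from cow 3 alone with 4.71 beside 0.07 in each other cow. On day 7 it was 1.39 ± 0.97 (adjusted p = 0.343). KCNMB2 had a change of -1.39 ± 0.55 on day 7 (adjusted p = 0.112), lower in 3 of 3 cows. KCNMB3 had -0.33 ± 0.23 (adjusted p = 0.331) and KCNMB4 -0.24 ± 0.71 (adjusted p = 0.84), with cow 3 opposite to the others. The difference between pore and beta subunits was not tested.

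KCNN2 and KCNN4, small- and intermediate-conductance channels opened by calcium through calmodulin, went opposite ways. KCNN2 had -1.31, -1.27 and -1.03 on day 0 and -2.13, -2.50 and -2.31 on day 2, then -3.80, -5.87 and -4.02 on day 7 and -1.31, -3.43 and -0.90 on day 14. Its arrays of days 0, 2 and 7 formed 3 groups without overlap, and on day 14 cows 1 and 3 were back at the day 0 level while cow 2 was not. The change to day 7 was -3.36 ± 0.48 (adjusted p = 0.00558), and that to day 2 was -1.11 ± 0.48 (adjusted p = 0.239). Its single probe (chr10:2940698-2940757, plus strand) is shown whole because the result rests on it.
KCNN2: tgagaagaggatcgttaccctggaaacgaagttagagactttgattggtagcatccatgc

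KCNN4, a channel of lymphocytes and of secretory epithelia, had -4.63, -5.18 and -4.50 on day 0 and -2.28, -2.63 and -2.36 on day 2, then -1.94, -1.48 and -1.28 on day 7 and -3.41, 0.01 and -3.37 on day 14. All arrays of the later days were above those of day 0. The change was 3.2 ± 0.76 on day 7 (adjusted p = 0.0257), a rise of 9.21-fold, and 2.34 ± 0.76 on day 2 (adjusted p = 0.138), which did not pass. A further KCNN4 probe gave 2.69 on day 7 (adjusted p = 0.0444), and the remaining one was not tested. With normexp and quantile scaling the change on day 7 was 1.98 (adjusted p = 0.0552). KCNT1, a sodium-activated channel of neurons, had -5.47, -4.83 and -6.18 on day 0 and -3.29, -3.01 and -4.67 on day 2, then -2.70, -3.81 and -4.37 on day 7. Its change was 1.84 on day 2 (adjusted p = 0.0851) and 1.87 ± 0.48 on day 7 (adjusted p = 0.0329). This call was close to the threshold and was lost without the replicate block (adjusted p = 0.0579), with array weights (1.38, 0.0653), with normexp and quantile scaling (0.78, 0.0633) and when any 1 cow was left out (0.0755 to 0.152). KCNN1 and KCNN3 had day 7 changes of 0.07 and 0.42 and did not pass.

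**Figure D3:**
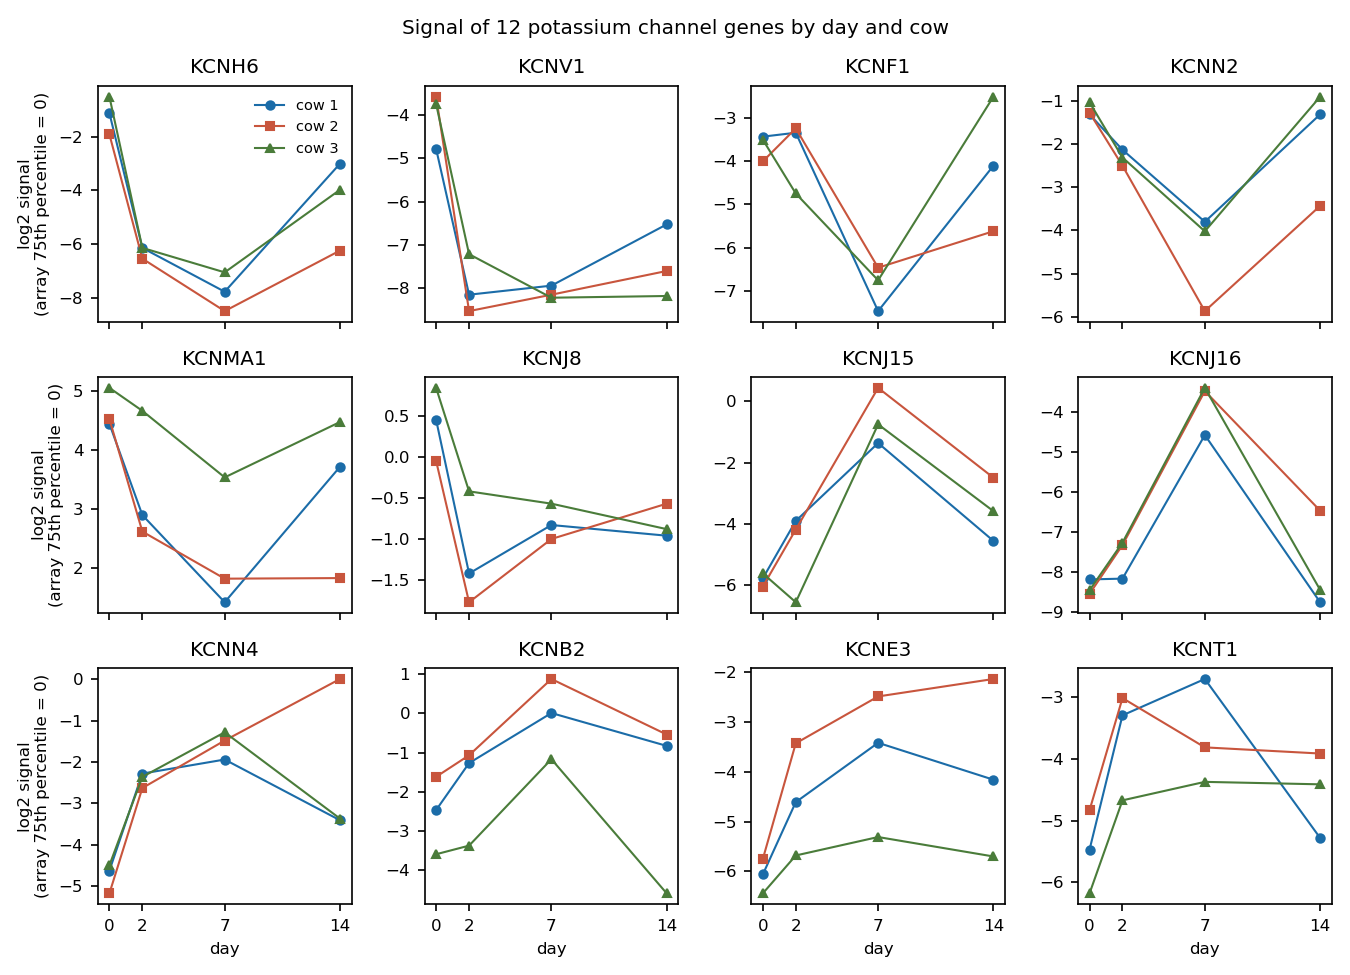
Log2 signal (vertical axis, 0 is the array's 75th percentile) of 12 potassium channel genes on days 0, 2, 7 and 14 (horizontal axis), with a line for each cow. KCNH6 is low on days 2 and 7 and KCNV1 from day 2. KCNF1 and KCNN2 are lowest on day 7, and KCNJ16 is high on day 7 alone, from -4.57 to -3.39.

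Of 7 inward rectifiers tested, KCNJ15 and KCNJ16 rose and KCNJ8 and KCNJ11 fell on day 7 (57.1%, beside 19.2% of all genes). KCNJ16 is counted here although its day 7 arrays alone brought it into the tests. KCNJ15 and KCNJ16 are subunits of transporting epithelia such as kidney tubule, and KCNJ16 carries current only when joined to KCNJ10 or KCNJ15. KCNJ15 had -5.77, -6.04 and -5.61 on day 0 and -3.90, -4.18 and -6.55 on day 2, then -1.36, 0.44 and -0.75 on day 7 and -4.55, -2.49 and -3.58 on day 14. Day 7 was above every other array, and on day 2 cows 1 and 2 were above day 0 but cow 3 was not. The change to day 7 was 5.25 ± 0.68 (adjusted p = 0.00419), a rise of 38.1-fold on this probe.

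The rise of KCNJ15 differed in size between its 2 probes. The second, 1194 bases further upstream, rose by 1.54 ± 0.33 (adjusted p = 0.0185), with single cows at 0.89, 2.40 and 1.32 against 4.41, 6.48 and 4.86 on the brightest. The 95% intervals, 0.79 to 2.29 and 3.69 to 6.82, did not overlap, though the difference itself was not tested. Both are shown because they read the same gene so differently: the upstream probe whole (chr1:154027060-154027119, plus strand), in which 1 reading frame has no stop codon, and the first 30 bases of the brightest (chr1:154028254-154028313, plus strand).
KCNJ15, upstream probe: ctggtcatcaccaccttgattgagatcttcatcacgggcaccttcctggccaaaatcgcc
KCNJ15, brightest probe: ggggcaaagggactctgtattcacaaagta

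KCNJ16 was well above background on the 3 arrays of day 7 and on no other, and so entered the tests through the day on which it was high. Its signals were -8.18, -8.54 and -8.45 on day 0 and -8.16, -7.32 and -7.26 on day 2, then -4.57, -3.47 and -3.39 on day 7 and -8.75, -6.46 and -8.44 on day 14. Its rise from day 0 to day 7 was at least 6.62-fold (log2 change 4.58 ± 0.48, adjusted p = 0.00219). Its other probe, 1175 bases upstream, was not well above background on any array and was not tested. On that probe the day 7 differences from day 0 were -0.78, 1.38 and 0.95 in the 3 cows. The rise of KCNJ16 thus stands on 1 of its 2 probes. Both are shown for that reason: the upstream probe whole (chr19:62559166-62559225, minus strand) and the first 30 bases of the brightest (chr19:62557991-62558050, minus strand).
KCNJ16, upstream probe: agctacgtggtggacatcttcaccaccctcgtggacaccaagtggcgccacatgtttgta
KCNJ16, brightest probe: tatatataaacagagcttttgaagaatgtg

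KCNJ8 and KCNJ11 are the pores of ATP-sensitive potassium channels, the former known from vascular smooth muscle and pericytes. KCNJ8 had 0.45, -0.05 and 0.84 on day 0 and -1.42, -1.77 and -0.42 on day 2, then -0.83, -1 and -0.57 on day 7 and -0.96, -0.57 and -0.88 on day 14. Every later array was below every day 0 array. The change was -1.62 ± 0.28 on day 2 (adjusted p = 0.0313) and -1.22 ± 0.28 on day 7 (adjusted p = 0.0235). The day 2 call was lost without the replicate block (adjusted p = 0.0515). Its single probe (chr5:94862187-94862246, plus strand) is shown as the one read-out of a pore that passed on both days.
KCNJ8: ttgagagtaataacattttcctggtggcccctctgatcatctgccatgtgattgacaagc

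KCNJ11 had -2.92, -2.68 and -3.13 on day 0 and -4.37, -4.00 and -4.76 on day 2, then -3.75, -4.67 and -4.62 on day 7 and -3.54, -4.88 and -3.73 on day 14. All later arrays were below day 0 here too. The change passed on day 7 (-1.44 ± 0.37, adjusted p = 0.0329) and not on day 2 (-1.46 ± 0.37, adjusted p = 0.0786), although its size was alike. ABCC8, a sulfonylurea receptor of ATP-sensitive channels, had a day 7 change of -0.02 ± 0.22 (adjusted p = 0.968). ABCC9, another such receptor, is not reported here. KCNJ12, a classical strong rectifier, was well above background on 3 arrays of day 0 and none of day 7, with a change of -2.00 ± 0.85 that did not pass (adjusted p = 0.135). KCNJ2 (-0.34) and KCNJ9 (0.35) did not pass, and the other 7 inward rectifiers were not tested.

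Of 10 tandem-pore channels tested, 1 passed on day 7, lower (10%, beside 8.15% of all genes lower). Their median size of change was 0.24 on day 7, beside 0.41 over all genes. On days 2 and 14 it was 0.5 and 0.56, each beside 0.3. KCNK1, a weakly conducting leak channel, had 0.77, 0.51 and 0.44 on day 0 and 0.59, 0.49 and -1.61 on day 2, then -0.71, -0.29 and -1.16 on day 7 and 0.24, 0.10 and -0.47 on day 14. Its change to day 7 was -1.29 ± 0.38 (adjusted p = 0.0471), close to the threshold. Its other probe gave -1 (adjusted p = 0.0867), and KCNK1 no longer passed without the replicate block (adjusted p = 0.121), with no filter on dim probes (0.0643) or as the mean of its probes (0.0565). KCNK12 had a day 7 change of 1.75 ± 0.64 (adjusted p = 0.0943). Cow 3 had the largest change to day 2 in KCNK2, a mechanosensitive channel, with 3.66 beside -0.34 and -1.58 in cows 1 and 2. KCNK9, an acid-sensitive channel, had changes of 0.79, 0.19 and 1.03 on days 2, 7 and 14, the last with an adjusted p of 0.138. The day 7 changes of KCNK3, KCNK5, KCNK6, KCNK7, KCNK15 and KCNK17 lay between -0.19 and 0.54, and none passed.

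Among the 15 accessory subunits tested, KCNE3 rose and KCNAB3 fell on day 7 (13.3%, beside 19.2% of all genes). The median size of change of the 15 was 0.33 on day 7, beside 0.41 over all genes. On days 2 and 14 it was 0.54 and 0.58, each beside 0.3. KCNE3 holds KCNQ1 open in intestinal epithelium, where the pair supports chloride secretion. Its signals were -6.06, -5.75 and -6.44 on day 0 and -4.61, -3.43 and -5.68 on day 2, then -3.42, -2.49 and -5.31 on day 7 and -4.16, -2.14 and -5.70 on day 14. Its rise to day 7 was 2.34 ± 0.46 (adjusted p = 0.0138), largest in cow 2 (3.26) and smallest in cow 3 (1.13), and it was lost without the replicate block (adjusted p = 0.124) and with normexp and quantile scaling (0.84, adjusted p = 0.0702). Its single probe is shown whole (chr15:53387184-53387241, minus strand, the interval the array's files give).
KCNE3: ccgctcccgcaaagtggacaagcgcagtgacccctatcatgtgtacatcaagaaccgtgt

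KCNAB3, a beta subunit of voltage-gated channels, had -1.13, -0.99 and -0.40 on day 0 and -2.46, -2.51 and -2.35 on day 2, then -1.95, -2.76 and -2.23 on day 7 and -1.46, -2.26 and -1.75 on day 14. Its change was -1.60 ± 0.23 on day 2 (adjusted p = 0.0205) and -1.47 ± 0.23 on day 7 (adjusted p = 0.00766), and no later array reached the day 0 range. Among the other KCNE genes, KCNE4, which restrains several voltage-gated pores, had changes of 2.39 ± 0.82 on day 2 (adjusted p = 0.152) and 2.55 ± 0.82 on day 7 (adjusted p = 0.0631), higher in 3 of 3 cows without passing. KCNE1 had -1.75 ± 1.08 on day 2 (adjusted p = 0.392) and 2.28 ± 1.08 on day 7 (adjusted p = 0.171). KCNE1L had -0.85 on day 7 and did not pass. Of the KCNIP genes, which join KCND pores, KCNIP2, KCNIP3 and KCNIP4 had day 7 changes of 0.06, 0.09 and 0.01. KCNAB1 and KCNAB2, the other beta subunits of voltage-gated channels, had 0.14 and 0.22, and KCNRG, a suppressor of channel assembly, had 0 on day 7 with cows between -0.37 and 0.27.

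Of the 16 genes that passed on day 7, 9 had at least 1 other probe, 12 other probes in all. The 9 of these that could be tested all had the sign of the brightest probe, and 5 passed in the same direction.

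**Figure D4:**
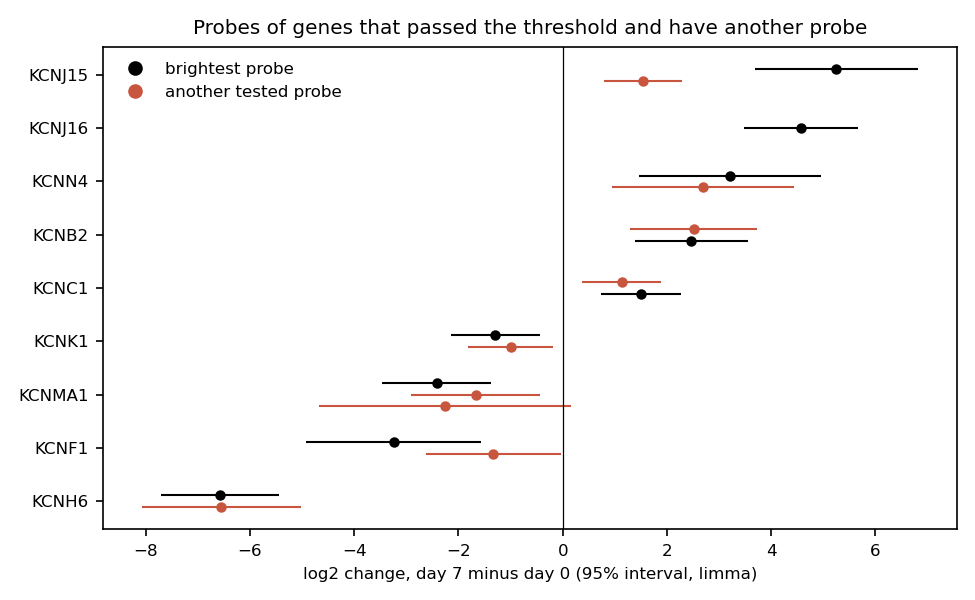
Log2 change from day 0 to day 7 with its 95% interval (limma) for each tested probe of the 9 genes that passed and have another probe. Black points are brightest probes and red points other probes. The intervals of the KCNJ15 probes do not overlap, and KCNJ16 has 1 tested probe.

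On day 14 no potassium channel gene passed against day 0, while 0.106% of all genes did. With limma, 13 of the 54 genes had an unadjusted p under 0.05. Normexp background correction with quantile scaling gave 3 genes, array weights 3, the fit without the replicate block 1 and the samples of the file links 4. No day 14 array of KCNV1 was well above background, so its difference from day 0 is a bound, at least 5.81-fold lower (-3.42, adjusted p = 0.0544). The other genes named by the size of their change were KCNH6 (-3.22, adjusted p = 0.0544), KCNN4 (2.52, 0.132), KCNJ15 (2.26, 0.132), KCNE3 (2.08, 0.0782) and KCNE4 (1.84, 0.248). All but KCNE4 moved the same way in 3 of 3 cows. KCNN4 was uneven, with 0.01 in cow 2 on day 14 and -3.41 and -3.37 in the others.

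Between the later days, KCNJ15 and KCNJ16 were the genes that passed. KCNJ16 was among the genes tested only through its day 7 arrays, and with no filter on dim probes the call of KCNJ15 from day 2 to day 7 (adjusted p = 0.0671) and that of KCNJ16 from day 7 to day 14 (0.0541) were lost. From day 2 to day 7, where 0.548% of all genes passed (0.18% higher), KCNJ15 rose by 4.32 ± 0.68 (adjusted p = 0.048) and KCNJ16 by 3.77 ± 0.48 (adjusted p = 0.0292, at least 4.78-fold). From day 7 to day 14, where 0.123% of all genes passed (0.0737% lower), KCNJ16 fell by 4.07 ± 0.48 on the log2 scale (adjusted p = 0.0359, at least 6.57-fold). KCNN2 had a change of 2.69 ± 0.48 from day 7 to day 14, higher in 3 of 3 cows without passing (adjusted p = 0.0637). KCNH6 had 3.36 ± 0.50 between the same days, at least 3.79-fold and also higher in 3 of 3 cows without passing (adjusted p = 0.0549, limma). Without the day 2 array of cow 3, 1 gene passed from day 2 to day 7; without cow 3 as a whole 7 passed, and without cow 1 or cow 2 none (9 and 10 unadjusted in limma). The call of KCNJ16 from day 7 to day 14 was lost when any 1 cow was left out. Under the samples of the file links 0 genes passed from day 2 to day 7 and 2 from day 7 to day 14, both others.

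Other genes that move potassium were read from lists of pumps, cotransporters and accessory subunits. Of 12 tested genes of the sodium-potassium and proton-potassium pumps (18 listed), 2 fell on day 7 (16.7%, beside 8.15% of all genes lower), among them ATP1B2, a beta subunit, at least 2.88-fold (-3.18, adjusted p = 0.00866). The widely expressed ATP1B1 (0.10) did not pass. ATP12A, a proton-potassium pump of epithelia, rose on day 2, at least 2.31-fold (2.56, adjusted p = 0.0387), where 2 arrays of day 2 and none of day 0 were well above background. It was 1 of the 12 (8.33%), beside 1.94% of all genes higher on day 2. Of 5 tested cation-chloride cotransporters (7 listed), 2 rose on day 7 (40%, beside 11% of all genes higher). They were SLC12A2, which loads secretory epithelia with chloride and potassium (1.43, adjusted p = 0.0305), and SLC12A4 (1.11, adjusted p = 0.00429). Of 4 tested accessory subunits outside the KCN names (9 listed), 1 fell on day 7 (25%, beside 8.15% of all genes lower). It was DPP10, a partner of KCND pores (-4.44, adjusted p = 0.00583).

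Marker genes of several cell types also differed between days. Of 9 tested smooth muscle markers, 4 rose on day 7 (ACTA2, TAGLN, DES and ACTG2) and 1 on day 2 (ACTG2), beside 11% and 1.94% of all genes higher on those days, and their median change was 1.75 on day 7. Their log2 summed signal was 6.03 to 6.47 on day 0 and 6.98, 6.52 and 9.12 on day 2, then 7.80, 7.55 and 8.64 on day 7 and 6.74, 6.47 and 8.72 on day 14. High values of cow 3 on days 2, 7 and 14 fall on the 3 arrays on which KCNMB1 was highest. KCNMA1 and KCNJ8 were lower on day 7, when these markers were higher. Of 11 tested leukocyte markers, 2 rose on day 2 (PTPRC and CD68) and 4 on day 7 (PTPRC, CD68, CSF1R and CD14), beside the same 1.94% and 11% of all genes, and their summed signal was 3.07 to 3.33 on day 0 and 4.04 to 4.29 on day 2, then 3.37 to 4.68 on day 7 and 3.38 to 3.62 on day 14.

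Epithelial and stromal fibroblast markers, which define the labelled tissue, were measured, with 9 of 10 tested in each list. None passed on day 2 or 7. The summed epithelial signal was 5.97 to 6.31 on day 0 and 5.06 to 6.76 on day 2, then 5.64 to 6.51 on day 7, with the lowest value on the day 2 array of cow 3. Of 9 endothelial markers, PECAM1 rose on day 2 (11.1%, beside 1.94% of all genes higher). PECAM1 and VWF rose on day 7 (22.2%, beside 11% of all genes higher). The summed signal of 7 tested nerve and Schwann cell markers (10 listed) was 3.24 to 4.20 on day 0 and 3.2 to 4.32 on day 2, then 1.70 to 2.40 on day 7 and 1.73 to 3.56 on day 14. On day 7, 3 of these 7 had a positive change, their median was -0.57, and 1 passed, lower (14.3%, beside 8.15% of all genes). SOX10 and NEFL were not tested, since they were well above background on fewer than 3 arrays. The part of any of these cell types in the changes of the potassium channel genes was not tested.

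**Figure D5:**
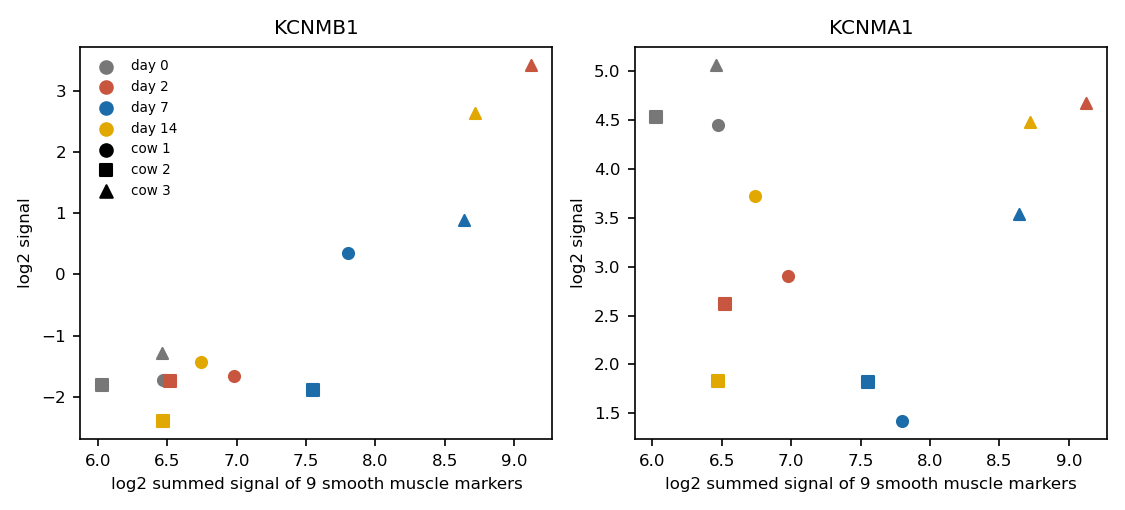
Log2 signal of KCNMB1 (left) and KCNMA1 (right) against the log2 summed signal of 9 smooth muscle markers on each of 12 arrays. Colour gives the day and shape the cow. KCNMB1 is highest on the 3 arrays of cow 3 with marker sums of 8.64 to 9.12, while KCNMA1 is lowest on day 7 in cow 1 (1.42).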

How the data were processed

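Intensities of 12 single-colour Agilent arrays were deposited per spot, made with Feature Extraction 11.5.1.1 per the file headers (10.5.1.1 per the submitters' processing notes, a difference that could not be settled) and detrended within each array. The authors also deposited a log2 value table. Its making is not stated in the labels or headers. By comparison with the scanner files its columns are log2 intensity minus the array's 75th percentile and the probe's median over the arrays (median absolute difference at most 0.0031), so scale, centring and direction are known from that comparison alone. Column medians lay between -0.07 and 0.08. Every column correlated at 1.0 with 1 scanner file (next best at most 0.52). For 10 arrays that file is linked to another sample, and the table's names were used. They gave 20 probes that set the 4 arrays of a cow at least 8-fold apart, and the file links gave 0. Under the table's names these 4 arrays are also those of 1 slide, so this check cannot separate cow from slide.

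Signals were log2-transformed, the array's 75th percentile was subtracted, spots of a probe were averaged, and 1417 control spots and 31 of 43653 probes with outlier flags were left out. No probe was saturated. A probe well above background on at least 3 of 12 arrays was tested, which left 33539. The comparisons were fitted with limma 3.58.1 under R 4.3.3 on all arrays, with the day as a factor and the cow as a block, with 6 residual and 2.33 prior degrees of freedom and Benjamini-Hochberg adjustment over all probes at 0.05. Where no array of a day was well above background, a fold is given as "at least", against the mean of, per array, the lowest signal well above background or the probe's own if higher. The number of arrays limits the precision. The pairing comes from the design text (the same animals). Over 18 pairs of arrays from the same cow, deviations from the mean of the day had a mean correlation of 0.285 (lowest 0.0235, 15 above 0.1). Arrays of such a pair also share a slide, so the correlation cannot separate cow from slide. Named were all genes past the threshold that moved the same way in 3 of 3 cows, for comparisons with fewer than 6 such genes also the 6 largest changes among genes well above background on 1 of both days, and partners in the same channel complex. Members and lists were chosen with earlier results of these data known. Gene names are those of the array, and 44 of the 84 genes also matched by accession, each to the same symbol, in the RefSeq table (assembly ARS-UCD2.0, used for names alone). Alternatives are given in the closing section. Results of some genes are not reported here.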

Additional observations from a re-analysis of the deposited data

Results flagged for a closer look

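In 3 results the change between 2 later days was itself tested and passed. KCNJ15 had a log2 change of 4.32 from day 2 to day 7. KCNJ16 had fitted log2 changes of 3.77 from day 2 to day 7 and -4.07 from day 7 to day 14, which are differences from days without an array well above background and so stand for at least 4.78-fold and at least 6.57-fold. Each held in 3 of 3 cows. With no filter on dim probes, the first (adjusted p = 0.0671) and the last (0.0541) did not pass.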

How the results depend on the processing

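Quantile scaling left all 35 gene results and all counts of genes on the same side of the threshold. The deposited value table did so too, but it differs from the signals tested by a probe's median, which cancels between days. Its outcome was thus fixed beforehand and is no separate check. The count of genes past the threshold for day 2 against day 0 (4) was 2 among genes well above background on all 12 arrays, 11 with array weights, 0 under the samples of the file links (1 with an unadjusted p under 0.05) and 0 to 3 with a cow left out. For day 7 (16) it was 9 on all 12 arrays, where 27 genes were tested, 10 with no replicate block, 0 under the file links (3 unadjusted) and 0 to 15 with a cow left out. For day 14 (0) it was 3 with normexp and quantile normalisation, 1 with no replicate block, 3 with array weights, 4 under the file links and 0 to 0 with a cow left out. From day 2 to day 7 (2) it was 1 with no filter, 0 on all 12 arrays, 0 with only both days in the fit, 21 with array weights, 0 under the file links, 1 without the day 2 array of cow 3 and 0 to 7 with a cow left out. From day 7 to day 14 (1) it was 2 with normexp, 0 with no filter, 0 with only both days, 19 with array weights, 2 under the file links and 0 to 0 with a cow left out. The array weights did not reach their convergence tolerance. Of 450 values of single genes under the alternatives, 333 kept side and direction, including all 35 of the deposited value table. Another 91 fell short of the threshold, 12 passed it anew and 14 reversed, all 14 under the file links. These were KCNH6 (1.19), KCNV1 (0.75), KCNAB3 (0.19), KCNE4 (-0.88), KCNN4 (-0.79), KCNT1 (-0.56), KCNMB1 (-0.65) and KCNJ11 (0.28) on day 2, KCNV1 (0.46), KCNT1 (-0.81), KCNC1 (-0.57), KCNAB3 (0.04) and KCNJ8 (0.36) on day 7, and KCNE3 (-0.87) on day 14. The cause of the other moves was not tested. Without the replicate block, 7 gene results fell short of the threshold and 1 passed it anew. Signal over background limits KCNH6, KCNV1, KCNF1 and KCNJ16 to bounds.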

Other observations

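Some potassium channel genes set cow 3 apart on several days. They are given as values because they were chosen after their values were seen. KCNIP4, a calcium-binding partner of KCND pores, had log2 signals of -1.08, -1.21 and -1.48 on days 2, 7 and 14 in cow 3 and between -5.51 and -3.90 in the other cows, while on day 0 the cows were close (-3.92, -3.55 and -3.16). KCNG1, a modifier of KCNB channels, was alike, with -2.81, -3.81 and -2.50 in cow 3 on days 2, 7 and 14 and -6.05 on day 0, and between -7.41 and -5.06 in the other cows on all days. KCNA2, a pore of axons, was lower in cow 3 on all 4 days, from -6.54 to -5.06, than in the other cows, from -3.32 to -1.46. KCNK12, a tandem-pore subunit, had 0.65, -0.51 and -0.06 in cow 3 on days 2, 7 and 14 and at most -1.38 in the other cows, while its day 7 arrays were also all above its day 0 arrays. The log2 summed signal of smooth muscle markers was highest on the same arrays of cow 3, with 9.12, 8.64 and 8.72 on days 2, 7 and 14 and at most 7.80 on any other array. Its part in the values of KCNIP4, KCNG1 and KCNK12 was not tested. Cow and slide cannot be told apart here.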
